A study of Mus musculus with 8 samples.

Results

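The cells described here are tumour cells that carry transcripts of both filament systems at once: keratins 8 and 18 of simple epithelia, and vimentin of mesenchymal cells. They were chosen by their raw Krt8, Krt18 and Vim counts in the libraries labelled RFP+, as cells with at least 1000 counts in all, at least 2 counts of Krt8 plus Krt18, and at least 3 counts of Vim. By that rule 842 cells were hybrid, 464 in library 1 and 378 in library 2, among 2968 RFP+ labelled cells with at least 1000 counts and 7400 cells in the series. The levels of these 3 genes are therefore given as description, and the genes were left out of the totals and the tests.

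The cells belong to Tri-PyMT, a cultured line from a breast tumour of a mouse carrying MMTV-PyMT, Fsp1-cre and Rosa26mT/mG, which all groups share. Cre is driven by the Fsp1 promoter (Fsp1 is S100a4), and Cre turns the red reporter off and the green one on. Sorted RFP+ and GFP+ cells were measured by Drop-seq, which captures single cells with barcoded beads in droplets and counts polyadenylated RNA. The labels' 8 samples are 4 libraries on 2 lanes each, 2 libraries per population, and nothing in them says that the libraries came from separate cultures. With the library as a block, the p-values below rest on a spread between class sums that was pooled over genes. It was not taken from how a gene's own difference varies between the 2 libraries, so a difference seen in 1 library can be called. The variation between libraries could also be technical. The classes of RFP+ labelled cells that are used, all with the genotype above, are hybrid cells, keratin-positive cells with no Vim count (221 cells), keratin-positive cells with 1 or 2 Vim counts (659 cells), and cells with at least 3 Vim counts and no Krt8 or Krt18 count (266 cells). Hybrid cells of the libraries labelled GFP+ (452 cells) and their 30 keratin-positive cells with no Vim count serve as cells the rule did not use.

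Keratins 8 and 18 pair to form the filaments of simple epithelia, which attach to desmosomes and give a cell sheet its strength. Vimentin forms the filaments of fibroblasts and other mesenchymal cells and is gained by epithelial cells in epithelial-mesenchymal transition (EMT), in which cells loosen their junctions and become motile. Tumour cells with both sets of transcripts are often called hybrid or partial EMT cells, and mammary tumours of the PyMT model are mostly luminal.

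The RFP+ labelled libraries held 3081011 and 2989112 counts with medians of 1234.5 and 1223 counts per cell. The reporter rows went against the labels in hybrid cells as well. CUSTOM_GFP stood at 603 and 604 CPM (a gene's share of a class's summed counts, scaled to 1e6, without the 3 genes of the rule) in hybrid cells labelled RFP+, and at 98.1 and 118 CPM in hybrid cells labelled GFP+. CUSTOM_RFP stood at 146 and 125 CPM in hybrid cells labelled RFP+, against 3074 and 3114 CPM in hybrid cells labelled GFP+. Populations are therefore called by their labels throughout. Barcodes found in more than 1 library numbered 2, and no hybrid cell carried one. The hybrid sums of libraries 1 and 2 differed with a chi-square of 1.25 per degree of freedom over 7205 genes.

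Vim and at least 1 of Krt8 and Krt18 are in each hybrid cell by construction, but few counts stand behind the class. Hybrid cells had a median of 5 Vim counts in both libraries, with ranges of 3 to 32 and 3 to 31, and 27.8% and 28.6% of them stood at 3. They had a median of 3 keratin counts, up to 25 and 24, and 35.3% and 27.8% stood at 2. In the summed counts of a library's hybrid cells Vim was at 2524 and 2543 CPM, against 3493 and 3277 CPM in cells with at least 3 Vim counts and no keratin count. Krt18 was at 1291 and 1299 CPM in hybrid cells, against 1536 and 1829 CPM in keratin-positive cells without Vim. Krt8 was at 575 and 542 CPM in hybrid cells, against 797 and 629 CPM. These levels follow in part from the rule, since a minimum count is a larger share of a cell with fewer counts.

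Hybrid cells were more deeply counted than the classes they are set against. Their median was 1874 and 1893.5 counts and 1092 and 1115 genes per cell, against 1327.5 and 1378 counts and 868 and 875 genes in keratin-positive cells without Vim. More than 3000 counts were held by 18.5% and 21.7% of hybrid cells and by 3.92% and 2.52% of keratin-positive cells without Vim. No doublet caller was run and no cell was removed as a doublet, so the part of doublets in these values was not tested. The median share of mitochondrially encoded counts was 0.392% and 0.419% in hybrid cells, against 0.367% and 0.297% in cells without Vim.

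Depth set how many cells met the rule. As counted, hybrid cells were 30.0% (exact Clopper-Pearson 95% interval 27.8 to 32.4) and 26.6% (24.3 to 28.9) of cells with at least 1000 counts. With every cell thinned at random to 1000 counts and classed again, they were 11.3% (9.79 to 13) and 7.66% (6.33 to 9.17). In the GFP+ labelled libraries the shares were 16.9% and 17.2% as counted and 5.43% and 6.0% after thinning. The intervals cover counting error between cells and not the spread between cultures.

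Whether a cell passed the Vim minimum was set beside its keratin counts. As counted, 51.8% and 45.7% of keratin-positive cells had at least 3 Vim counts, against 48.2% and 52.0% of cells with no keratin count, and the order of the 2 classes differed between libraries. At equal depth the shares were 28.6% (25 to 32.4) and 19.4% (16.2 to 23) in keratin-positive cells, against 36.9% (32.5 to 41.5) and 34.8% (30.3 to 39.6) in cells with no keratin count. Cells with 1 keratin count stood at 30.1% and 30.2%. After thinning, both libraries thus had the lower share in keratin-positive cells. These shares come from the counts that define the classes and carry no test.

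**Figure D1:**
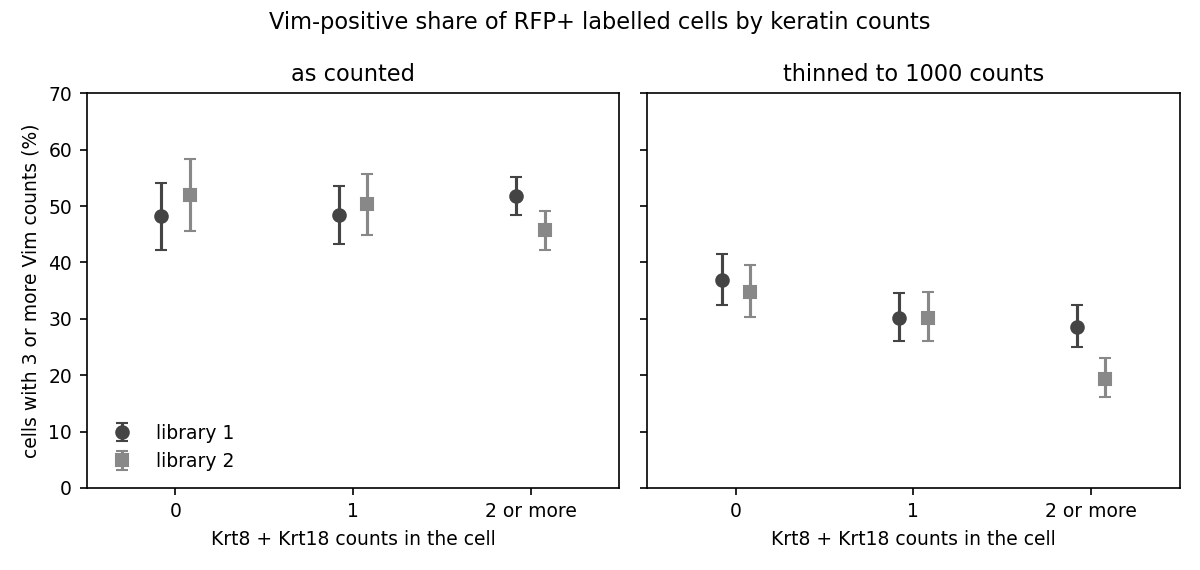
Share of RFP+ labelled cells with at least 3 Vim counts (percent, y axis) by the cell's Krt8 plus Krt18 counts (x axis), as counted and after thinning to 1000 counts. Points are libraries and bars are exact 95% intervals. After thinning, keratin-positive cells stand at 28.6% and 19.4% and keratin-0 cells at 36.9% and 34.8%.

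The main comparison asked which other transcripts differ between hybrid cells and keratin-positive cells without Vim. Hybrid cells had higher S100a4, Fth1, S100a6, Spp1, Malat1 and Vgll4, and lower Epcam, Krt7, Wfdc2, Lcn2, Cxcl16, Mdm2, Ly6e, Nolc1, Rhou, Ly6a, Cenpf, Cystm1 and Ccdc68. These are 6 higher and 13 lower genes of 7451 tested at an edgeR adjusted p under 0.05, or 0.0805% and 0.174% of the genes tested and 0.255% together. At an unadjusted p under 0.05 there were 502 genes, and the median log2 fold over all genes was 0.002. Each of the 19 genes had the same direction in both libraries and in each alternative run. With all 4 libraries in the fit, 5 genes were higher and 10 lower. Runs with 1 RFP+ labelled library left out were fitted together with the GFP+ labelled libraries. Their spread thus came from GFP+ labelled sums. Leaving out 1 library left few calls: Fth1, S100a4 and Epcam were called without library 1 and without library 2, S100a6, Spp1 and Malat1 without library 1 alone, and the other 13 in neither case.

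Since depth differed, the comparison was repeated on thinned cells with their classes kept, on thinned cells classed again, and on cells matched for depth in bins of 250 counts. Fth1, S100a4, S100a6, Epcam, Spp1, Krt7 and Cxcl16 were called in all 3. Without the cells above 3000 counts, an alternative added after seeing the data, 5 genes were higher and 10 lower, and 13 of the 19 were among them. DESeq2's Wald test called 7: Fth1, S100a4, S100a6, Epcam, Wfdc2, Krt7 and Lcn2.

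The regions before an annotated start site of S100a4, Epcam and Krt7 are shown. S100a4 was called higher and its promoter drives Cre in this line, and Epcam and Krt7 were called lower. The letters CAGGTG, which Zeb and Snail repressors of epithelial genes are known to bind, were searched on both strands (CAGGTG or CACCTG) and are in capitals. RefSeq sequences on GRCm38.p6 of the 250 bases before the start site were found for 14 of the 19 called genes, and 6 of the 14 held the letters. These were Fth1, Spp1 and Vgll4, called higher, and Epcam, Wfdc2 and Krt7, called lower, an even split. Counted by sequence, 7 of 17 (41.2%) held them, against 17.2% of 32851 sequences of all genes. The 7 count Wfdc2 by 2 sequences, which start at 164562465 and 164562466 and hold the same letters. Fth1 and Spp1 held them in 1 of their 2 sequences each. Whether the shares differ was not tested. None of the 17 held TGANTCA, the letters of AP-1 sites, against 6.75% of all. A match is a description of the letters and not a shown binding site. The Krt7 sequence lies inside the span of the gene, 101411043 to 101430313, so its start site is not the outermost one. The S100a4 sequence is chr3:90603520-90603769, the Epcam sequence chr17:87635729-87635978 and the Krt7 sequence chr15:101412153-101412402, each on the plus strand.
S100a4: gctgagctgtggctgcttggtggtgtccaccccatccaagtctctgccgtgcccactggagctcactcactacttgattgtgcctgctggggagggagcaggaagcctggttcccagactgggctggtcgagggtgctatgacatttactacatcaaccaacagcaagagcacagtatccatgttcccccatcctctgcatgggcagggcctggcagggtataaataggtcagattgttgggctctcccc
Epcam: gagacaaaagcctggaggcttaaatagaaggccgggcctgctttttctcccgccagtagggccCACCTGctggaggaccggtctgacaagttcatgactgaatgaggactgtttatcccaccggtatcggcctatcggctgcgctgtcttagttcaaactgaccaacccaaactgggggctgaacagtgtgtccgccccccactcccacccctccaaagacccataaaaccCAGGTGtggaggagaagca
Krt7: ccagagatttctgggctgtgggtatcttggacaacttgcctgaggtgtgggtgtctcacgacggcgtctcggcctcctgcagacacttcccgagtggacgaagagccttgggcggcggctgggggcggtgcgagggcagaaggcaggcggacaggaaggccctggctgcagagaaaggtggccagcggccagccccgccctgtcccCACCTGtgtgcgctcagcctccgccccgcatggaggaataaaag
The S100a4 sequence held neither set of letters, the Epcam sequence held CAGGTG or CACCTG at 2 places and the Krt7 sequence at 1.

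Among mesenchymal genes, S100a4 was called. S100a4 (GRCm38 chromosome 3, 90603771 to 90606045), a calcium-binding protein of fibroblasts and motile cells whose promoter drives Cre here, was at 694 and 744 CPM in hybrid cells, against 341 and 393 CPM in keratin-positive cells without Vim. The libraries of the 2 classes did not overlap, and the log2 fold was 0.96 ± 0.135 (SE) with an edgeR adjusted p of 6.55e-09. Its fold stayed between 0.84 and 1.45 over the alternatives. The neighbouring S100a6, a calcium-binding protein of proliferating cells, was at 8272 and 8613 CPM in hybrid cells, against 6548 and 6369 CPM (log2 fold 0.38 ± 0.0568, edgeR adjusted p = 9.34e-08). Without library 2 its adjusted p was 0.27.

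S100a4 was also found in more of the hybrid cells at equal depth. In thinned cells, 43.4% (36.0 to 51.1) and 44.0% (34.5 to 53.9) of hybrid cells had an S100a4 count, against 27.9% (20.6 to 36.1) and 29.0% (22.4 to 36.3) of keratin-positive cells without Vim. As counted the shares were 63.6% and 63.0% of hybrid cells, against 35.3% and 41.2%. Cells with Vim and no keratin count had S100a4 in 58.3% and 59.6% after thinning. No cell type here is known to lack S100a4, so a background share from free RNA could not be set beside these.

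Of 22 mesenchymal genes tested, 1 was called higher, S100a4, none lower, and 17 had folds above 0, with a median log2 fold of 0.23. Over all genes tested, 3744 of 7451 had folds above 0. Sparc, a matricellular protein that binds collagen, was at 404 and 349 CPM in hybrid cells, against 244 and 342 CPM (log2 fold 0.34, edgeR adjusted p = 0.682). Lgals1, galectin-1, had 5712 and 5966 CPM in hybrid cells, against 5533 and 5079 CPM (0.13, adjusted p = 0.655). Fn1, fibronectin, had a log2 fold of -0.14 ± 0.291 and Cdh2, N-cadherin, one of -0.13 ± 0.36, and both classes overlapped. Tagln2, an actin-binding protein, had a log2 fold of -0.13 ± 0.103.

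No transcription factor of the EMT list was called among 15 tested, and their median log2 fold was 0.04. Zeb1, a repressor of Epcam and Cdh1, was at 14.7 and 18.3 CPM in hybrid cells, against 12.9 and 22.4 CPM. Zeb2, its close relative, was at 23.5 and 30.9 CPM, against 19.3 and 11.2 CPM (log2 fold 0.83 ± 0.667, edgeR adjusted p = 0.921). Snai1 was at 7.84 and 8.0 CPM in hybrid cells, against 6.43 and 11.2 CPM, and was too low to be tested. Foxc1, a forkhead factor, had the lowest unadjusted p of the 15 (0.00233, log2 fold -1.23 ± 0.404, edgeR adjusted p = 0.334) and is named after its values were seen. The standard errors of Zeb1 and Zeb2, 0.707 and 0.667 on the log2 scale, were larger than the 0.172, 0.152 and 0.123 of Id1, Id2 and Id3, whose folds were -0.08, 0.27 and 0.11.

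Of the epithelial genes tested, Epcam alone was called. Epcam (chromosome 17, 87635979 to 87651129), the epithelial cell adhesion molecule, was at 336 and 313 CPM in hybrid cells, against 604 and 561 CPM in keratin-positive cells without Vim. The libraries of the 2 classes stood apart, with a log2 fold of -0.85 ± 0.135 and an edgeR adjusted p of 6.98e-07. In thinned cells, 35 of 175 (14.3% to 26.7%) and 27 of 109 hybrid cells (17.0% to 34.0%) had an Epcam count, against 40.0% (31.8 to 48.6) and 43.8% (36.3 to 51.4) of cells without Vim. Cells with Vim and no keratin count stood at 19.0% and 19.2%. As counted, the shares were 38.8% and 42.1% of hybrid cells, against 51 of 102 and 64 of 119 cells without Vim and 21.6% and 27.3% of cells with Vim and no keratin count. The last class held Epcam at 192 and 259 CPM, and hybrid cells did not pass against it (log2 fold 0.50 ± 0.166, edgeR adjusted p = 0.462).

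Of 33 epithelial genes tested, 1 was called lower, none higher and 32 were not called. Folds below 0 were found for 27 of the 33, with a median log2 fold of -0.53, where 3707 of all 7451 genes had folds below 0. Cldn3, a tight junction claudin, was at 61.7 and 75.5 CPM in hybrid cells, against 116 and 123 CPM (log2 fold -0.81 ± 0.294, edgeR adjusted p = 0.509). Dsp, Esrp1 and Cd24a are named here after their values were seen. Dsp, the desmosomal plaque protein that anchors keratin filaments, was at 73.5 and 45.7 CPM, against 129 and 89.8 CPM (-0.86 ± 0.311, adjusted p = 0.509). Esrp1, a splicing factor of epithelial cells, was at 24.5 and 30.9 CPM, against 83.5 and 39.3 CPM (-1.13, adjusted p = 0.543).

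The classical E-cadherin gene Cdh1 was at 47.0 and 38.9 CPM in hybrid cells, against 51.4 and 61.7 CPM, a log2 fold of -0.41 ± 0.405 that did not pass (adjusted p = 0.962). Cldn7, another claudin, was at 7.84 and 8.0 CPM in hybrid cells, against 32.1 and 33.7 CPM (-1.99 ± 0.697, adjusted p = 0.505). Cldn4 was near 0 in both classes, at 7.84 and 2.29 CPM in hybrid cells and at 0 and 5.61 CPM in cells without Vim, and was not tested. Cd24a, a surface glycoprotein of luminal cells, went the other way without passing, with 665 and 660 CPM in hybrid cells, against 553 and 589 CPM (0.20 ± 0.121).

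**Figure D2:**
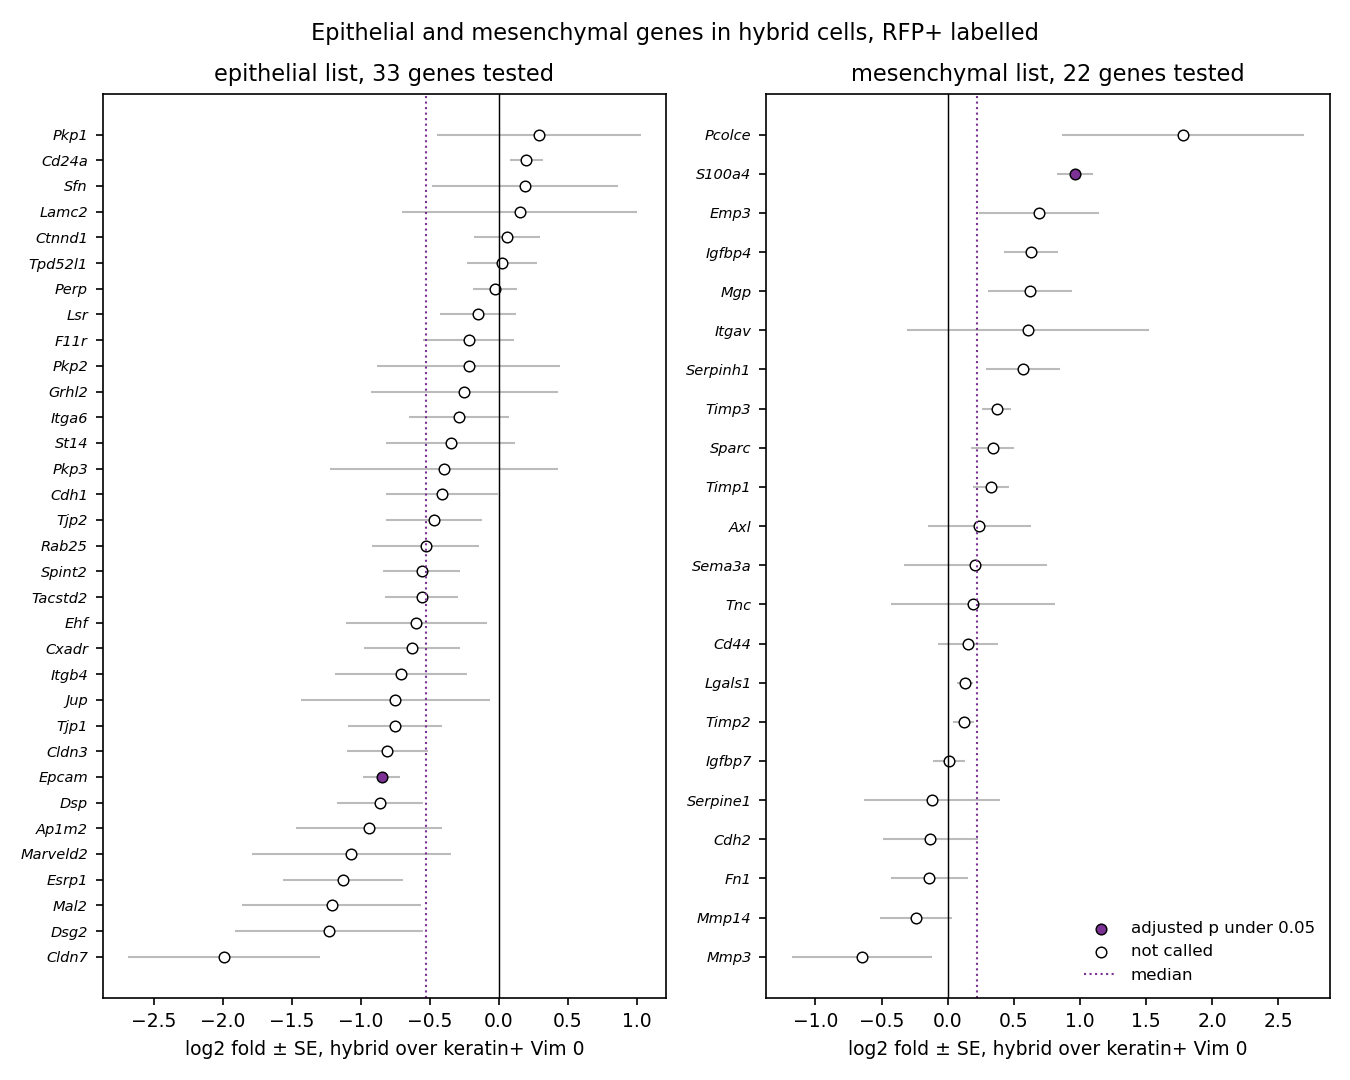
Log2 fold of hybrid over keratin-positive Vim 0 cells in RFP+ labelled libraries (x axis, bars are SE) for each tested member of the epithelial list (33 genes) and the mesenchymal list (22 genes). Filled points passed an edgeR adjusted p under 0.05, dotted lines are medians (-0.53 and 0.23), and Epcam and S100a4 are the filled members.

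Among other keratins, Krt7 was called. Krt7, a keratin of glandular epithelia, was at 259 and 292 CPM in hybrid cells, against 463 and 488 CPM in cells without Vim (log2 fold -0.80 ± 0.148, edgeR adjusted p = 5.46e-05). With 1 library left out, its adjusted p was 0.314 and 0.27. Krt14, a basal keratin, was at 106 and 160 CPM in hybrid cells, against 122 and 135 CPM, and Krt19 was at 30.4 and 53.7 CPM, against 57.8 and 28.1 CPM, so that both overlapped between the classes. Of the 4 keratins tested outside the rule, Krt7 alone was called.

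Secreted products of the luminal epithelium split in direction. Wfdc2, a protease inhibitor of secretory epithelia, was at 974 and 993 CPM in hybrid cells, against 1343 and 1403 CPM (log2 fold -0.50 ± 0.0909, edgeR adjusted p = 5.31e-05). Lcn2, lipocalin-2, which binds bacterial iron carriers, was at 38.2 and 41.2 CPM, against 129 and 129 CPM (-1.70 ± 0.318, adjusted p = 8.64e-05). Spp1, osteopontin, was at 1712 and 1557 CPM in hybrid cells, against 1317 and 954 CPM (0.53 ± 0.0901, adjusted p = 8.28e-06).

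These calls were not equally firm. Wfdc2 was called in depth-matched cells and in neither thinned setting (edgeR adjusted p = 0.0699 with classes kept and 0.22 classed again). Lcn2 was not called in thinned cells classed again (edgeR adjusted p = 0.299). Without either library Wfdc2 had an adjusted p of 0.152 or 0.337 and Lcn2 one of 0.325 or 0.337, while Spp1 had 0.00261 without library 1 and 0.992 without library 2. Of the 12 luminal secretory genes tested, 1 was higher, Spp1, and 3 were lower, Wfdc2, Lcn2 and Cystm1, with a median log2 fold of -0.24. Of all genes tested 0.0805% were called higher and 0.174% lower.

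Outside these lists, the ferritin heavy chain stood out. Fth1 (chromosome 19, 9980598 to 9985098), the subunit that oxidises iron for storage, was at 4774 and 5007 CPM in hybrid cells, against 3387 and 3468 CPM in cells without Vim (log2 fold 0.50 ± 0.0643, edgeR adjusted p = 4.85e-11). Its fold lay between 0.45 and 0.63 over the alternatives and it was called in each. Ftl1, the light chain, was at 285 and 380 CPM in hybrid cells, against 289 and 331 CPM (0.08, adjusted p = 0.988). Both have many near-identical pseudogene copies in the mouse genome, so their counts are uncertain. Of 26 iron and antioxidant genes tested, Fth1 alone was called, where 0.255% of all genes tested were called.

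The remaining falls were in genes of varied roles, where 0.255% of all genes tested were called in either direction. Cxcl16, a membrane-bound chemokine, was at 92.1 and 75.5 CPM in hybrid cells, against 174 and 191 CPM (log2 fold -1.13 ± 0.247, edgeR adjusted p = 0.00393). Mdm2, the ubiquitin ligase that degrades p53, was at 86.2 and 56.0 CPM, against 180 and 146 CPM (-1.20 ± 0.264, adjusted p = 0.00393), the 1 called of 20 p53 targets. Ly6e, a surface protein induced by interferon, was at 904 and 923 CPM, against 1208 and 1229 CPM (-0.42 ± 0.0946, adjusted p = 0.00498), the 1 called of 20 interferon genes. Ly6e was called in neither thinned setting (log2 folds of -0.36 and -0.17, edgeR adjusted p = 0.321 and 0.844). Mdm2 was not called in thinned cells classed again (edgeR adjusted p = 0.783). None of these 3 was called with a library left out.

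Nolc1, a nucleolar phosphoprotein, was at 780 and 702 CPM in hybrid cells, against 996 and 993 CPM (-0.44 ± 0.103, edgeR adjusted p = 0.0109). It was the 1 called of 104 ribosome biogenesis genes, of which 68 had folds below 0 with a median of -0.15. Over all 7451 genes 3707 had folds below 0 and 0.255% were called, so 1 call here says little about the list. None of the 3 depth settings called Nolc1, with folds of -0.41, -0.20 and -0.25. The 81 ribosomal protein genes had a median log2 fold of 0.00 with no call.

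The proliferation markers Mki67 and Top2a did not pass. Mki67 was at 377 and 329 CPM in hybrid cells, against 347 and 331 CPM, and Top2a at 700 and 615 CPM, against 585 and 673 CPM, with log2 folds of 0.05 and 0.04. Cenpf, a kinetochore protein, was the 1 called of 65 G2/M genes, where 0.255% of all genes tested were called. It was at 294 and 247 CPM in hybrid cells, against 366 and 449 CPM (-0.61 ± 0.155, edgeR adjusted p = 0.04). It was not called in any of the 3 depth settings.

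Malat1, a nuclear long non-coding RNA, was called higher (0.32 ± 0.0783, edgeR adjusted p = 0.024), but library 2 set that value. It was at 2169 and 2297 CPM in hybrid cells, against 2088 and 1487 CPM in cells without Vim. Without library 2 the log2 fold was 0.05, and without library 1 it was 0.63.

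Ly6a, a surface antigen of progenitor cells, and Cystm1, a small membrane protein, were lower at edgeR adjusted p of 0.0386 and 0.0401. Both were called in depth-matched cells and in neither thinned setting. Rhou, Ccdc68, a centriole protein, and Vgll4, a cofactor of TEAD transcription factors, rest on few counts. Rhou was at 4.90 and 8.0 CPM in hybrid cells, against 25.7 and 56.1 CPM. Ccdc68 was at 8.82 and 11.4 CPM in hybrid cells, against 57.8 and 39.3 CPM, and Vgll4 at 83.3 and 90.3 CPM, against 38.6 and 16.8 CPM. Ccdc68 and Vgll4 were called in none of the depth settings that tested them, and Rhou was too low to be tested there.

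The markers of other cell types were few. Summed over 10 immune genes, hybrid cells held 52.9 and 46.9 CPM, against 25.7 and 39.3 CPM in cells without Vim, and 3 of the 10 were at 0 in hybrid cells. Summed over 9 endothelial genes they held 12.7 and 12.6 CPM, against 6.43 and 11.2 CPM, and over 8 fibroblast genes 14.7 and 11.4 CPM, against 25.7 and 0 CPM. The 2 erythroid genes were at 0 in both classes. The part of these low counts in the results was not tested.

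**Figure D3:**
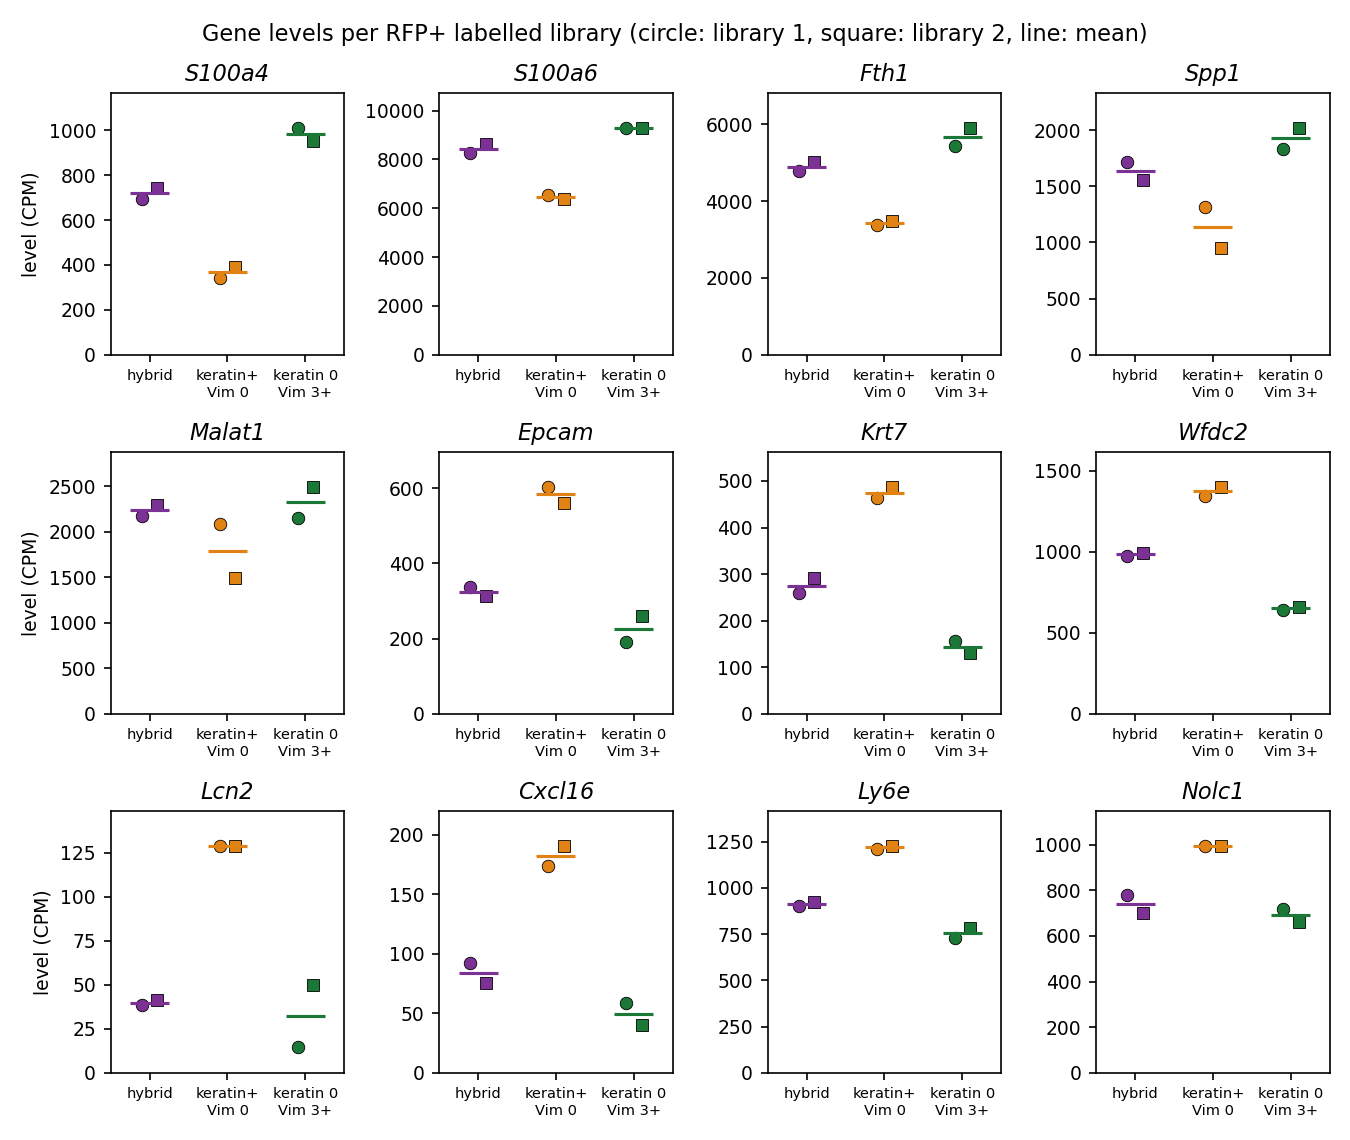
Level (CPM, y axis from 0) of 12 genes called between hybrid and keratin-positive Vim 0 cells, in hybrid cells, keratin-positive Vim 0 cells and keratin-0 cells with at least 3 Vim counts. Circles and squares are the 2 RFP+ labelled libraries and lines their mean. S100a4 stands at 694 and 744 CPM in hybrid cells, between 341 and 393 CPM and 1012 and 951 CPM in the other classes.

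Within keratin-positive cells the levels were also read along Vim counts, as a description that shares its cells with the comparison above. S100a4 in library 1 was at 341, 430, 594 and 766 CPM in cells with 0, 1 or 2, 3 or 4, and 5 or more Vim counts, and in library 2 at 393, 508, 516 and 899 CPM. Fth1 was at 3387, 3770, 4373 and 5061 CPM in library 1 and at 3468, 4024, 4473 and 5371 CPM in library 2. Both genes increased at each step in both libraries, so cells with 1 or 2 Vim counts stood between the classes compared.

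Epcam went down along the same steps in library 1, at 604, 494, 388 and 299 CPM, and in library 2 it was at 561, 580, 435 and 231 CPM. Krt7 was at 463, 405, 298 and 230 CPM in library 1 and at 488, 404, 358 and 246 CPM in library 2. Wfdc2 rose at the first step in library 1, at 1343, 1461, 1071 and 904 CPM, and fell at each step in library 2. Of the other called genes read this way, S100a6, Spp1, Lcn2 and Cxcl16 kept 1 direction in both libraries as counted. Ly6e, Mdm2 and Nolc1 did so in library 2 and not in library 1. In thinned cells the highest Vim step held 44 and 19 cells, and Epcam there rested on 11 and 9 counts, 252 and 478 CPM, with library 2 out of order. Thinned Spp1 fell from 3 or 4 to 5 or more Vim counts in both libraries, from 2097 to 1856 CPM and from 2068 to 1646 CPM. Thinned S100a6 fell there in library 1 (8358 to 8273 CPM) and not in library 2.

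**Figure D4:**
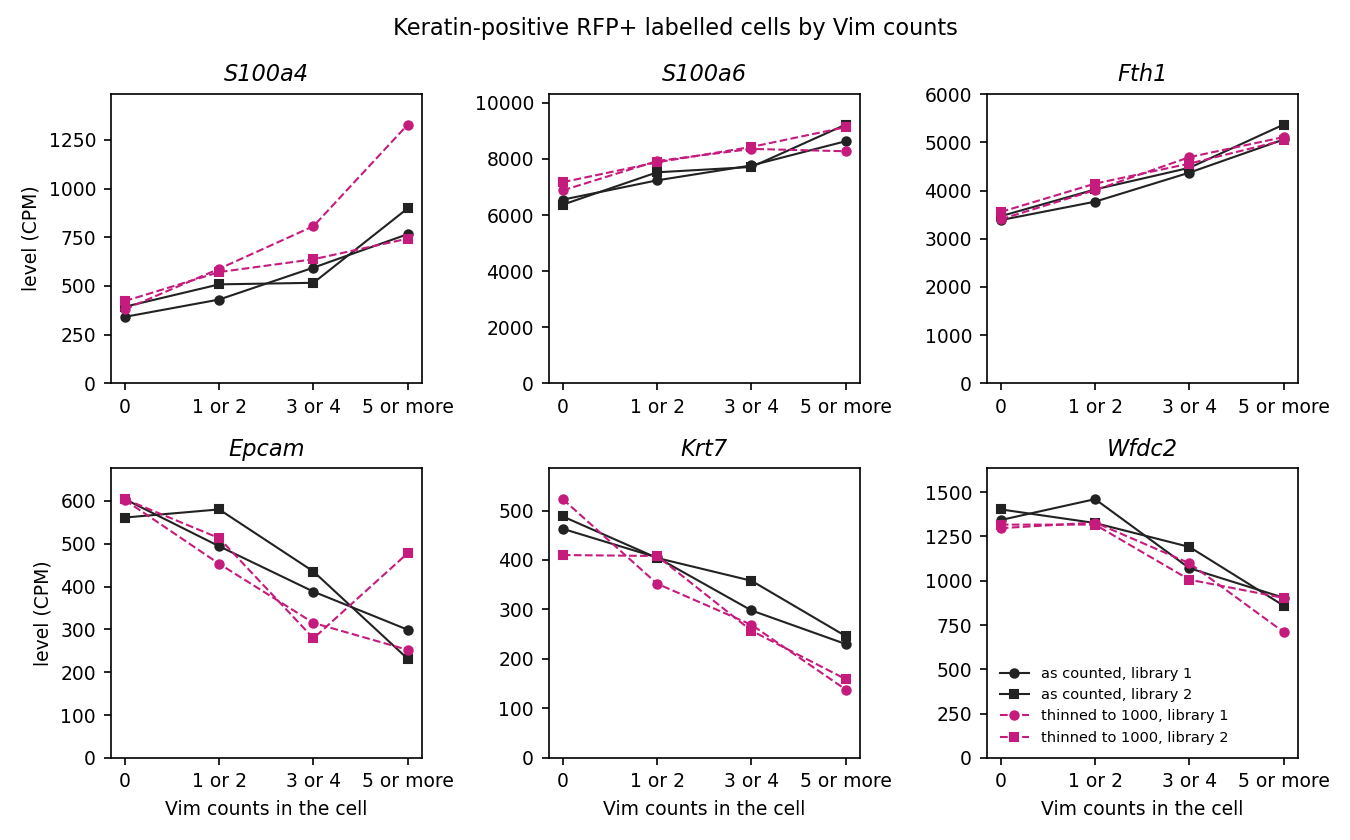
Level (CPM, y axis from 0) of 6 genes in keratin-positive RFP+ labelled cells with 0, 1 or 2, 3 or 4, and 5 or more Vim counts (x axis). Solid lines are cells as counted and dashed lines cells thinned to 1000 counts, with circles for library 1 and squares for library 2. S100a4 and Fth1 go up and Krt7 goes down along the solid lines in both libraries, and the thinned Epcam value of library 2 at the highest step rests on 9 counts. The solid Wfdc2 line of library 1 goes up at the first step.

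Hybrid cells also differed among themselves by keratin counts. Epcam was at 405 and 355 CPM in hybrid cells with at least 4 keratin counts and at 266 and 260 CPM in those with 2 or 3, and Krt7 at 350 and 329 CPM and at 166 and 244 CPM. S100a4 was at 638 and 652 CPM with at least 4 keratin counts and at 751 and 862 CPM with 2 or 3. After thinning, the S100a4 order held in library 1 (720 and 979 CPM) and not in library 2 (784 and 630 CPM). The thinned Krt7 order held in library 2 (336 and 221 CPM) and not in library 1 (180 and 246 CPM, from 5 and 36 counts), while the Epcam order held in both (504 and 260 CPM, 448 and 287 CPM). A count of both S100a4 and Epcam was found in 6.86% (3.59 to 11.7) and 11% (5.82 to 18.4) of thinned hybrid cells, against 8.57% and 10.8% of keratin-positive cells without Vim. These shares differed by less than their counting intervals.

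At the Vim edge of the rule, cells with 3 Vim counts had S100a4 at 617 and 457 CPM, against 495 and 530 CPM in cells with 2, and Epcam at 421 and 486 CPM, against 491 and 576 CPM. S100a4 overlapped there and Epcam was lower in the cells with 3 Vim counts within each library. At the keratin edge, cells with 2 counts had S100a4 at 738 and 744 CPM, against 811 and 973 CPM in cells with 1. Epcam there was at 297 and 270 CPM, against 206 and 211 CPM, and Krt7 at 199 and 237 CPM, against 148 and 152 CPM. S100a6 was at 8614 and 8567 CPM, against 8979 and 9102 CPM, and Fth1 at 5104 and 5359 CPM, against 5633 and 5813 CPM. No other gene was read at the edges. In the 100 counts above the minimum of 1000 counts per cell, S100a4 was at 703 and 683 CPM, against 919 and 444 CPM in the 100 counts under it.

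A further comparison set hybrid cells against cells with at least 3 Vim counts and no keratin count. Hybrid cells had higher Wfdc2, Krt7, Krt14 and Tagln2 and lower S100a4, Sparc, Timp2, Fth1, mt-Rnr2, Spdl1, Npr3 and Ranbp2. These are 4 higher and 8 lower of the 7451 genes, or 0.0537% and 0.107%, with 431 at an unadjusted p under 0.05. DESeq2's Wald test called none, with 123 at an unadjusted p under 0.05. With either library left out edgeR also called none, with 310 genes at an unadjusted p under 0.05 without library 1 and 336 without library 2.

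Wfdc2 was at 974 and 993 CPM in hybrid cells, against 639 and 662 CPM in Vim cells without keratin (log2 fold 0.57, edgeR adjusted p = 0.00017), and was called in all 3 depth settings. Krt14 was at 106 and 160 CPM, against 24.6 and 54.8 CPM (1.71, adjusted p = 0.000502), and Krt7 at 259 and 292 CPM, against 157 and 130 CPM (0.91, adjusted p = 0.00293). Krt7 was called in none of the depth settings. Tagln2 was at 817 and 857 CPM, against 560 and 578 CPM (0.53, adjusted p = 0.00148). In thinned cells classed again and in depth-matched cells Wfdc2 was the 1 gene called higher, so Krt14 and Tagln2 were not called there. In thinned cells with classes kept, 2 genes were called higher.

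On the other side, S100a4 was at 694 and 744 CPM in hybrid cells, against 1012 and 951 CPM (log2 fold -0.48, edgeR adjusted p = 0.00112). Sparc was at 404 and 349 CPM, against 521 and 613 CPM (-0.61, adjusted p = 0.00112). Timp2, an inhibitor of matrix proteases, was at 1827 and 1766 CPM, against 2290 and 2246 CPM (-0.36, adjusted p = 0.000767). In depth-matched cells these 3 had folds of -0.33, -0.43 and -0.32 and adjusted p of 0.524, 0.524 and 0.176, and S100a4 alone was called in thinned cells with classes kept (adjusted p = 0.0309).

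The mitochondrial ribosomal RNA mt-Rnr2 depended on depth. It was at 4134 and 3595 CPM in hybrid cells, against 5139 and 4378 CPM (-0.33, edgeR adjusted p = 0.00017). Its fold was -0.01 without cells above 3000 counts, 0.14 in depth-matched cells and 0.19 in thinned cells classed again. Spdl1, a spindle protein, Npr3, a natriuretic peptide receptor, and Ranbp2, a nuclear pore protein, had folds of -1.12, -1.11 and -0.97, and none was called in a depth setting. Of the 33 epithelial genes 31 had folds above 0 here, with a median of 0.68 and no call. Of the 22 mesenchymal genes 16 had folds below 0, with a median of -0.28 and 3 called lower (S100a4, Sparc and Timp2). Over all 7451 genes 3708 had folds above 0 and 3743 below 0. The genes tested had passed a minimum level in keratin-positive cells and not in this keratin-0 class. Low genes could thus enter through keratin-positive cells alone.

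For 12 of the 19 genes called against cells without Vim, the hybrid level lay between the other classes in both libraries (63.2%), against 1559 of all 7451 genes (20.9%). The 19 were called on 2 of the 3 levels set in order here, so the shares are not compared. The 12 were S100a4, S100a6, Fth1, Spp1, Epcam, Krt7, Wfdc2, Cxcl16, Ly6e, Ly6a, Nolc1 and Cystm1. Both comparisons share the hybrid sums, so their folds are not independent of each other.

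Whether the difference between Vim classes depends on keratin was tested as the difference of the differences. None of the 19 genes was called in it. S100a4 had a difference of -0.58 ± 0.313 (edgeR adjusted p = 0.78), Fth1 of -0.08 ± 0.119 (adjusted p = 0.895) and Epcam of 0.05 ± 0.32 (adjusted p = 0.989). Of all 7451 genes 0.0537% were called, 4 genes: mt-Rnr2, Actb, Mrpl12 and Eef1g. The keratin-0 cells without Vim numbered 55, with 37697 and 33915 counts, and the median difference over all genes was -0.33. In thinned and in depth-matched cells no gene was called by edgeR, with 363, 209 and 242 genes at an unadjusted p under 0.05.

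The GFP+ labelled libraries gave the same comparison in cells the rule did not use. There the hybrid cells numbered 240 and 212 and the keratin-positive cells without Vim 16 and 14, and 57 genes were called higher and none lower (0.765% of the genes tested). The median log2 fold over all genes was 0.48, and CUSTOM_RFP, at 3074 and 3114 CPM against 2833 and 3338 CPM, had a fold of 0.39, so the folds include a shift of scale. Of the 19 genes, Fth1, S100a4, S100a6, Spp1 and Malat1 were also called here. S100a4 was at 1400 and 1927 CPM in GFP+ labelled hybrid cells, against 583 and 897 CPM in those without Vim (log2 fold 1.55 ± 0.232, edgeR adjusted p = 4.17e-08). Epcam was at 321 and 313 CPM, against 333 and 797 CPM from 8 and 16 counts (-0.41 ± 0.332, adjusted p = 0.736).

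With cells of 0 or 1 Vim count as the low class, chosen after seeing the data, the GFP+ labelled comparison rested on 50 and 33 low cells and its median fold was 0.193. Fth1 then had a log2 fold of 0.79, S100a4 of 0.84, Spp1 of 0.82 and S100a6 of 0.43, all with edgeR adjusted p at or under 6.84e-05, and Epcam one of -0.75 (adjusted p = 0.16). In cells matched for depth Spp1 alone was called, with a fold of 1.30 and an adjusted p of 0.00935. The test of the difference between populations called 24 genes lower in RFP+ than in GFP+ labelled libraries (0.322%) and none higher. It called none in depth-matched cells, with 220 genes at an unadjusted p under 0.05, and none with cells of 0 or 1 Vim count as the low class, with 411. S100a4 had a difference of -0.59 ± 0.303 between populations (adjusted p = 0.654).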

How the data were processed

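The authors deposited 1 table of raw counts per gene and cell (16647 gene rows, of which 772 held no count and 23 had names that look like dates). The genome build was GRCm38, per the submitters' processing notes, while the aligner, the counter and any collapse of molecular identifiers were not stated there. The 2 lanes of a library share its columns. The members, gene lists and tests were chosen with earlier results of these data known.

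Counts were summed per class and library over 6 classes without Vim, Krt8 and Krt18 (12 sums for RFP+ labelled libraries, 24 for all). The genes tested were the same in each comparison of the main fit. They had at least 20 counts over the RFP+ labelled hybrid and keratin-positive Vim 0 sums and a mean of at least 10 CPM in either class. Genes low in both of these classes were thus not tested in keratin-0 or GFP+ labelled cells. The tests used edgeR 4.0.16 (R 4.3.3, limma 3.58.1), TMM scaling, the library as a block, and the quasi-likelihood F test with Benjamini-Hochberg adjustment at 0.05. The block is the library itself: the classes compared are cells of the same library. Standard errors were set to |log2 fold|/sqrt(F). DESeq2 1.42.0 was the other tool. Thinning drew 1000 counts per cell without replacement. Named genes are fixed markers, all called genes of the main comparison, called members of the lists and genes called in the other comparisons. Intervals cover counting error only.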

Additional observations from a re-analysis of the deposited data

Results flagged for a closer look

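Of the tests of a difference between groups, the one between populations called 24 genes with a lower hybrid against Vim 0 difference in RFP+ than in GFP+ labelled libraries. Among them Fth1 differed by -0.76 ± 0.161 on the log2 scale (edgeR adjusted p = 0.00404), Spp1 by -1.23 ± 0.237 (adjusted p = 0.00082) and Lgals1 by -0.55 ± 0.137 (adjusted p = 0.0272). The median over all genes was -0.502, and in depth-matched cells, where it was 0.0133, Fth1 differed by -0.26 and Spp1 by -0.76 with no gene called and 220 at an unadjusted p under 0.05. The test between keratin classes called 4 genes with a lower Vim difference in keratin-positive than in keratin-0 cells. They were mt-Rnr2 (-0.69, edgeR adjusted p = 0.000132), Actb (-0.45, adjusted p = 0.0358), Mrpl12 (-1.76, adjusted p = 0.0365) and Eef1g (-0.92, adjusted p = 0.0446), beside a median of -0.33 over all genes.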

How the results depend on the processing

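Against keratin-positive Vim 0 cells in RFP+ labelled libraries, 6 genes were higher and 13 lower. DESeq2 gave 3 higher and 4 lower, no filter 6 lower, thinned cells 5 lower with classes kept and 4 with classes set again, a keratin minimum of 4 gave 1 lower and a minimum of 1500 counts 2 lower. With 1 library left out there were 3 to 5 higher and 1 lower. Against keratin-0 Vim cells (4 higher, 8 lower), DESeq2 and either library left out gave 0 higher and 0 lower, thinned cells 2 higher and 1 lower or 1 and 1, depth-matched cells 1 and 0, a keratin minimum of 4 gave 8 and 14, 1500 counts 2 and 1, cells up to 3000 counts 2 and 1, and no filter and a Vim minimum of 5 each 0 lower. The 4 genes lower between keratin classes became 0 with DESeq2, a 50 CPM filter, both thinned settings, depth matching, a Vim minimum of 5, a keratin minimum of 4 and Vim 0 or 1 as the low class, 1 with no filter, 29 with 1500 counts and 0 to 1 with a library left out.

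In GFP+ labelled libraries the 57 higher became 154 with DESeq2, 111 with no filter, 6 with 50 CPM, 10 with thinned cells classed again, 1 with depth matching, 36 with a keratin minimum of 4, 10 with Vim 0 or 1, 28 and 7 without GFP+ library 1 and 2, and 47 and 48 without RFP+ library 1 and 2. The 0 lower became 2 with DESeq2 and with thinned cells of kept classes, and 1 with no filter, a Vim minimum of 5 and Vim 0 or 1. The 24 lower between populations became 67 with DESeq2, 0 with 50 CPM, depth matching and Vim 0 or 1, 2 with thinned cells classed again and with 1500 counts, 3 with a Vim minimum of 5 and 0 to 20 with a library left out. Without the library as a replicate block, the counts were 4 higher and 11 lower, 4 and 6, 2 lower, 59 higher and 19 lower in these comparisons. The share with at least 3 Vim counts was 28.6% and 19.4% after thinning, against 51.8% and 45.7% as counted.

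Uncalled genes changed sign against Vim 0 cells as follows. Krt19 was 0.16 with DESeq2, 0.05 with no filter, 0.11 depth-matched, 0.07 with keratin 4, 0.70 with 1500 counts, 0.01 with hybrid and Vim 0 sums only and 0.93 and -0.93 without library 1 and 2. Krt14 was -0.31 thinned and classed again, -0.07 depth-matched, -0.09 with Vim 5, -0.41 with keratin 4, -0.27 with 1500 counts and 0.25 and -0.21 without library 1 and 2. Fn1 was 0.51 thinned and classed again, 0.28 depth-matched, 0.00 with Vim 5 and 0.07 with Vim 0 or 1. Cdh2 was 0.41 with keratin 4 and -0.42 and 0.15 without library 1 and 2, Zeb1 4.78 with 1500 counts and -0.29 and 0.18 without library 1 and 2, and Mki67 -0.09 with keratin 4 and -0.01 without library 1. Top2a was -0.04 thinned and classed again, -0.05 depth-matched, -0.06 with 1500 counts, -0.02 without cells above 3000, -0.03 with Vim 0 or 1 and -0.13 and 0.25 without library 1 and 2. CUSTOM_GFP was 0.24 thinned and classed again and 0.04 with Vim 0 or 1, and CUSTOM_RFP -0.16 with keratin 4 and -0.05 with 1500 counts. Against keratin-0 Vim cells mt-Rnr2 was 0.19 thinned and classed again and 0.14 depth-matched. Between keratin classes mt-Rnr2 was 0.17 thinned and classed again and 0.02 with Vim 0 or 1, and Actb 0.04 thinned and classed again. Between populations S100a4 was 0.01 depth-matched, 0.03 with keratin 4 and 0.03 with Vim 0 or 1. The cause was not tested for any of these.

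The removal of cells above 3000 counts and the class of Vim 0 or 1 were chosen after seeing the data. With 2 libraries a population, leaving 1 out assumes that the lone library varies like the other sums of the fit. These runs fitted both populations together, so the spread came from the population with 2 libraries. Low depth limits the transcription factors and claudins, and the 16 and 14 GFP+ labelled Vim 0 cells limit that comparison.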
